A study of Homo sapiens with 2 samples.

Results

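TGF-beta and BMP signalling genes form the subject here: 48 genes chosen by name and function from the 19970 protein-coding genes annotated on chromosomes 1 to 22 and X. These 48 genes were chosen with earlier results of these data known. They were taken as 9 ligands, 2 secreted antagonists, 4 latent TGF-beta binding proteins, 9 type I and type II receptors, 3 co-receptors or decoy receptors, 8 SMADs, 2 ubiquitin ligases, 4 nuclear corepressors and 7 transcriptional targets. By branch, 21 were assigned to TGF-beta and activin, 17 to BMP and 10 to both. KDM1B, a flavin-dependent histone lysine demethylase, was mapped over the genome by ChIP-seq in cells of the human line MDA-MB-231, established from a triple-negative breast carcinoma. A retroviral vector, pOZ, gave these cells stable expression of 3xFLAG-KDM1B, and both groups carried it: 1 library precipitated with the anti-FLAG M2 antibody and 1 input library of the same cells. The labels do not say whether the cells were 1 clone or a pool, cells without the tag were not analysed here, and a peak list cannot show the markers of the cell line.

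In this pathway, dimeric ligands bind pairs of type I and type II receptor kinases, which phosphorylate SMAD proteins. SMAD2 and SMAD3 carry TGF-beta and activin signals and SMAD1, SMAD5 and SMAD9 carry BMP signals. Both kinds join SMAD4 and enter the nucleus, while SMAD6, SMAD7, SMURF ligases and the SKI and TGIF corepressors restrain them. In breast epithelium TGF-beta is known for growth arrest in normal cells and for mesenchymal change and invasion in carcinoma cells.

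The deposited list held 78536 peaks, each with a log2 ratio of ChIP over input. The ratio is the authors' value, for which no read counts were used here, so the depth and the counting error behind a single ratio are unknown. With 1 library in each group there was no replicate error and no test, and every comparison below is a description of this list. A peak was counted for a gene when its midpoint lay in the annotated span or within 5 kb of it. Spans are those of RefSeq on GRCh38.p14, the build (hg38) named for the peaks, and exons and introns were not used here. The percent of span covered is the share of the gene's own bases that lie under peaks.

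KDM1B peaks were found at most of these genes, and a few genes held most of the peaks. Of the 48 genes, 45 had a peak in the gene or within 5 kb (93.8%), against 67.5% of all protein-coding genes. Signalling genes were longer than most, with a median span of 48.9 kb against 24.2 kb, so the count was also set beside genes of like length. Peaks were present at 12 of 12 members under 20 kb, where 56.9% of all protein-coding genes of that length had one. They were present at 22 of 24 members of 20 to 100 kb, against 76.0%, and at 11 of 12 members of 100 kb or more, against 76.7%. The 3 genes without a peak were the BMP type I receptor gene BMPR1B, the activin type II receptor gene ACVR2A and SMAD9, which encodes a BMP-responsive SMAD.

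Together the members held 305 peaks, none of them shared between members, and 246 of these lay inside a gene. Counts per gene ran from 0 to 34 with a median of 4, against a median of 2 over all protein-coding genes. The 8 genes with 10 or more peaks held 162 of them (53.1%): SMAD3 with 34, SMURF2 with 32, TGFBR2 with 23, TGFB1 and LTBP4 with 16 each, LTBP2 and SMURF1 with 14 each, and TGIF2 with 13. A further 12 genes had 5 to 9 peaks and 25 had 1 to 4. The median percent of span covered was 4.78% over the members and 1.52% over all protein-coding genes, with genes without a peak included in both. Pooled over all bases the values were 6.78% and 5.75%. Of the members, 18 reached 10% or more, where 29.1% of all protein-coding genes did. At 20 to 100 kb pooled cover was lower in members, at 8.12% against 12.1%. There, 6 of 24 members reached 10%, against 2490 of 7639 genes. Pooled cover was higher in members under 20 kb (26.3% against 14.1%) and at 100 kb or more (5.31% against 2.37%). Member peaks were close to the list in height and width: their median log2 ratio was 2.93 and their median width 842 bp, against 2.99 and 804 bp in the whole list. Of the member peaks, 9.51% had a log2 ratio above 4, against 12.7% of the list. Of the 59 peaks outside the members' own spans, 25 had their midpoint in another annotated gene, and these cannot be assigned to the member alone.

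The count of genes with a peak changed more with the strength required of a peak than with the way peaks were assigned. Without any flank 41 members had a peak (58.2% of protein-coding genes), within 1 kb 44 (62.6%) and within 10 kb 45 (71.3%). Any overlap of a peak with the gene and its 5 kb flanks gave 45 (67.9%), and peaks off the whole multiples of a common step, described at the end, gave 44 (63.7%). Peaks at or above the median log2 ratio of the list gave 35 (55.7%). Many neighbouring peaks lay close together. Peaks joined across gaps of up to 1 kb numbered 21 at SMAD3, 21 at SMURF2, 12 at TGFBR2, and 5 each at TGFB1 and SMURF1. The stronger peaks alone numbered 18 at SMAD3, 14 at SMURF1, 11 at SMURF2, 7 at TGFBR2, 4 at TGFB1 and 1 at TGIF2.

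**Figure D1:**
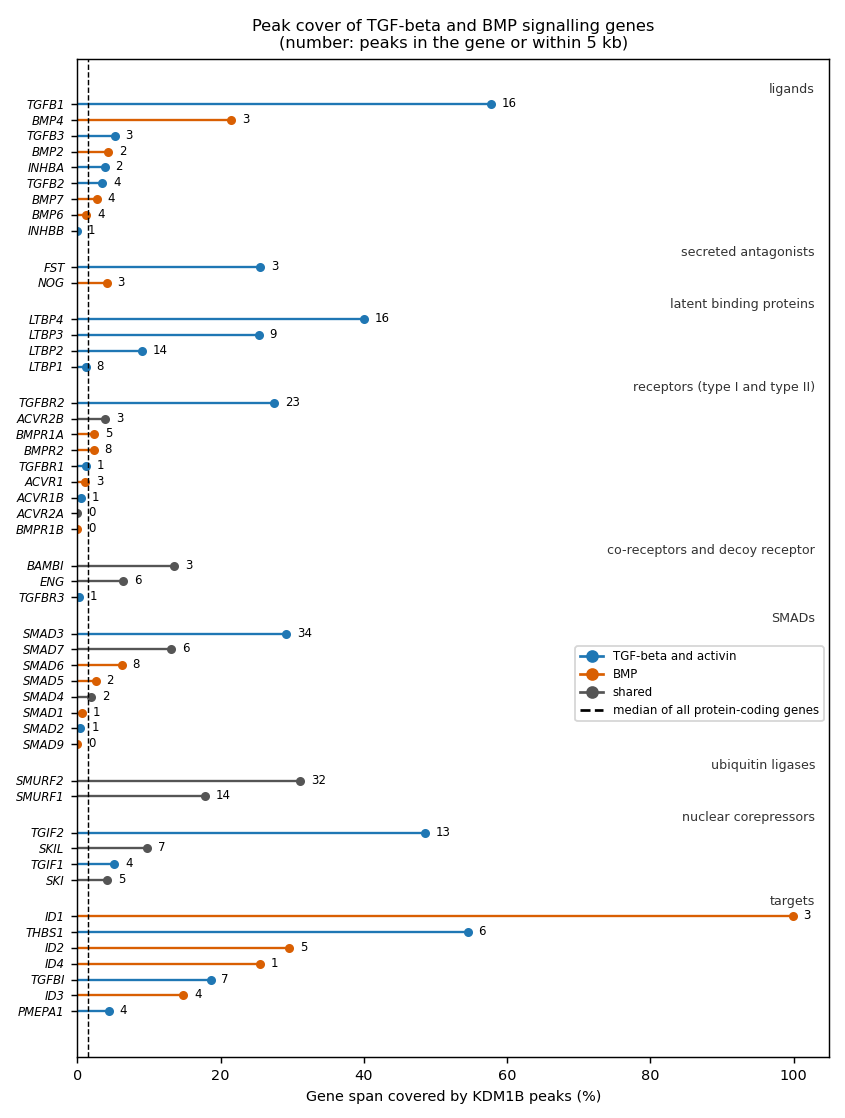
Percent of each gene's span covered by KDM1B peaks (x axis) for the 48 genes, grouped by role and coloured by branch, in 1 ChIP library over 1 input library. The number beside each point counts peaks in the gene or within 5 kb, and the dashed line is the median of all protein-coding genes (1.52%). ID1, TGFB1, THBS1 and TGIF2 lead, and most receptors lie near the line.

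The number of peaks did not simply follow gene length. SMAD3 (129568 bp), SMURF2 (120026 bp) and SMAD2 (121916 bp) are of similar span, yet held 34, 32 and 1 peaks. BMPR1B, with 400496 bp among the longest members, had none, and LTBP1, the longest at 453.0 kb, had 8. Among all protein-coding genes of its length class, SMAD3 lay at percentile 96.8 for percent of span covered and SMURF2 at percentile 97.2, while SMAD2 lay at percentile 43.2.

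**Figure D2:**
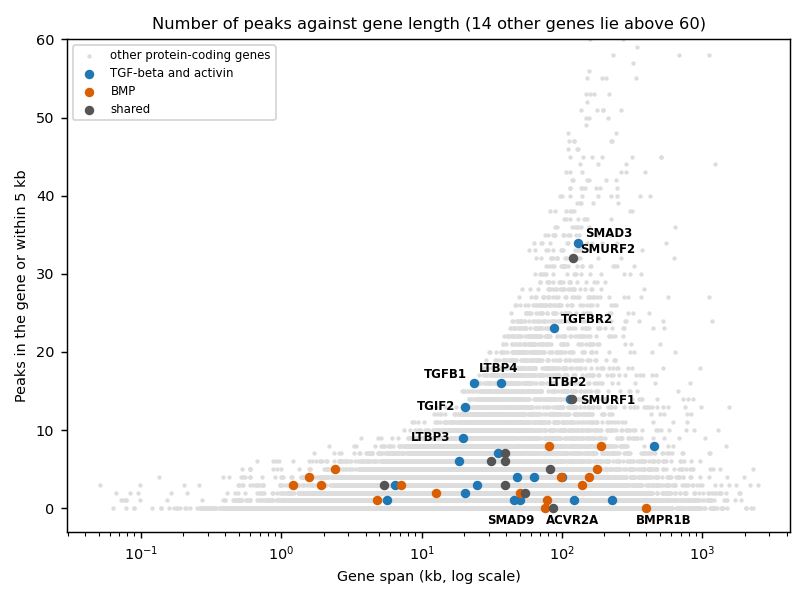
Peaks in the gene or within 5 kb (y axis) against gene span in kb on a log scale (x axis), with the members coloured by branch over all other protein-coding genes in grey. SMAD3, SMURF2 and TGFBR2 stand highest among the members, with 34, 32 and 23 peaks, and the 3 genes without a peak are named at the bottom.

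Peaks at transcription starts could be placed for 44 members, those with a listed start in the RefSeq promoter table. BMP2, BMP7, NOG and SKI had no entry. A peak midpoint within 1 kb of a listed start was found at 26 of the 44 (59.1%), against 39.8% of the 15811 protein-coding genes with a listed start. Members had more listed starts, 1.93 per gene against 1.40. Among the 27 members with a single listed start, 15 had a peak there (55.6%), against 36.6% of such genes. Within 500 bp of a start 19 of the 44 members had a peak, against 32.1% of protein-coding genes, within 5 kb 36 had one, against 53.3%, and by any overlap with 1 kb on each side 28 had one, against 42.4%. At the upstream end of the span alone, 24 of 44 members had one (54.5%), against 36.5%. The opposite, downstream end of the gene had a peak within 1 kb at 10 of 44 members (22.7%), against 17.4%. Start peaks carried lower ratios. The 31 member peaks within 1 kb of a start had a median log2 ratio of 2.47, with a range from 1.85 to 4.16, and the other 260 peaks of the same 44 genes had a median of 2.96. The whole list showed the same order, with medians of 2.61 and 3.01.

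The 300-base promoter window itself, from 250 bases before to 50 after a start, was overlapped by a peak at 22 of the 44 members, against 34.4% of all protein-coding genes. To show what this sequence looks like, the 250 bases before the outermost start of the gene (RefSeq, GRCh38.p14) are printed for the 6 members with the strongest peak over such a window. They are read 5′ to 3′ on the gene's strand, with capitals for the SMAD box CAGAC on either strand (GTCTG on the other) and for the GC-rich SMAD element GGCGCC, which reads the same on both strands. The 2 motifs can share an edge base.
LTBP2, chr14:74612238-74612487, minus strand: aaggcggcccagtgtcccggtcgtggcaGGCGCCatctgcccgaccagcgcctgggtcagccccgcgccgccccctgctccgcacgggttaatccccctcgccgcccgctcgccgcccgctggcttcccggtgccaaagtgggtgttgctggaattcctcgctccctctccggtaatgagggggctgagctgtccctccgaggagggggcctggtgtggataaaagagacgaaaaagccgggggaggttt
ACVR1B, chr12:51951449-51951698, plus strand: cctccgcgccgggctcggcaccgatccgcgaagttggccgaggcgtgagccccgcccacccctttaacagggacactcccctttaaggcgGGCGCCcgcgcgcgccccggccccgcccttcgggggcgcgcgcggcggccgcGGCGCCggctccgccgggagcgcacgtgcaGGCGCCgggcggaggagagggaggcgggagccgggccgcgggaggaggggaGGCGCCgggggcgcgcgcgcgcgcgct
SKIL, chr3:170357465-170357714, plus strand: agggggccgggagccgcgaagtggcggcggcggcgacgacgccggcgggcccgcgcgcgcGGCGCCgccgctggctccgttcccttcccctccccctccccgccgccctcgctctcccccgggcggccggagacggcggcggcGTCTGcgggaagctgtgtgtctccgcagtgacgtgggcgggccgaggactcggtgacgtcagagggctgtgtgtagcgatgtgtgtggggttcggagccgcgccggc
ID4, chr6:19837120-19837369, plus strand: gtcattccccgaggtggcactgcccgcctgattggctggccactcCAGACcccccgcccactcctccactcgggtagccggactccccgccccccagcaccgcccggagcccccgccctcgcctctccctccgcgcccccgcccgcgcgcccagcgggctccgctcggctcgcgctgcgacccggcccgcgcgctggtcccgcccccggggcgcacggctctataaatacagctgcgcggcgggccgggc
TGFB1, chr19:41353923-41354172, minus strand: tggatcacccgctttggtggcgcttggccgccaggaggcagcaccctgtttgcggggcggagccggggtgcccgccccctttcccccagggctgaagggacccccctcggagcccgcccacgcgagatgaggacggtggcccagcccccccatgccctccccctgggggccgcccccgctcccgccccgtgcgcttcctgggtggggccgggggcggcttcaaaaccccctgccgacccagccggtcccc
BAMBI, chr10:28677271-28677520, plus strand: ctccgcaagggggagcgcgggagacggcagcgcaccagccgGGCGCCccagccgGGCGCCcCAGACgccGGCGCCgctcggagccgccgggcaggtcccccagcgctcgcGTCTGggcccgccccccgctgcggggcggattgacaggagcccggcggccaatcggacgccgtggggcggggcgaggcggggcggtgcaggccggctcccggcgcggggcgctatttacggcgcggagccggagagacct
The peaks over them had log2 ratios of 4.16 at LTBP2, 3.30 at ACVR1B, 2.93 at SKIL, 2.90 at ID4, 2.58 at TGFB1 and 2.51 at BAMBI. The LTBP2 peak (chr14:74611738-74612241, hg38) lies almost wholly inside the gene and only touches the printed bases. In the printed bases GGCGCC was found 4 times at ACVR1B, 3 times at BAMBI and once each at LTBP2 and SKIL, and CAGAC 2 times at BAMBI and once each at SKIL and ID4. TGFB1 held neither motif in this stretch. CG dinucleotides numbered 48 at ACVR1B, 42 at SKIL, 41 at BAMBI, 34 at ID4, 23 at LTBP2 and 21 at TGFB1.

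Over full 300-base windows, 28 of the 85 listed for members lay under a peak, against 30.4% of all windows of protein-coding genes. GGCGCC occurred in 13 of the 28 member windows under a peak (46.4%), in 34.4% of all windows of protein-coding genes under a peak and in 24.3% of all such windows. Among all 85 member windows GGCGCC occurred in 21 (24.7%). CAGAC occurred in 15 of the 28 (53.6%) and in 44 of all 85 member windows (51.8%), so its share was nearly the same with and without regard to a peak, against 40.7% of all windows under a peak and 44.9% of all windows. The median number of CG dinucleotides was 35.5 in member windows under a peak, 29.0 in all windows under a peak and 21 in all windows, and 27 in all member windows. Some windows belong to neighbouring starts of the same gene and overlap. A match of these letters is a description and does not show binding by a SMAD protein.

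Among the ligands, TGFB1 had the highest cover. TGFB1 (chr19:41330323-41353922), which encodes the most widely expressed TGF-beta, had 16 peaks that covered 57.7% of its 23.6 kb, at log2 ratios from 2.25 to 3.34, from its start to just past its end. The longest stretch between peak midpoints inside the gene was 2.76 kb. TGFB2 (99.3 kb) had 4 peaks over 3.50% of its span and TGFB3 (chr14:75958097-75983011, 24.9 kb) had 3 over 5.25%, up to 3.62. Each had 1 at a start, at 1.85 in TGFB2 and 3.05 in TGFB3. TGFB1 and TGFB3 are of nearly equal length. The contrast in counts depended on how peaks were split and how strong they were: joined within 1 kb, TGFB1, TGFB2 and TGFB3 had 5, 4 and 3 peaks, and at or above the median log2 ratio they had 4, 1 and 2.

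The other ligands carried 1 to 4 peaks. BMP4 (chr14:53949736-53956891), a BMP ligand, had 3 peaks over 21.5% of its 7.16 kb, at 2.40, 2.43 and 3.57. BMP2 (chr20:6767686-6780246), another BMP ligand, had 2 peaks near its lower coordinate (2.62 and 2.76) over 4.32% of its span. BMP7 had 4 inside the gene, the strongest at 3.99. BMP6 had a start peak (2.47) and 2 near its end. Its remaining peak, 8.93 kb wide at 3.44 (chr6:7881480-7890405), has its midpoint in the neighbouring gene TXNDC5. INHBA, which encodes the activin A subunit, had 2 peaks, 1 of them 1278 bp inside a listed start at a log2 ratio of 4.34. INHBB, for the activin B subunit, had a single peak at -1560 bp from its start (2.68) and none of its own bases covered. The secreted antagonists had 3 peaks each. FST (chr5:53480629-53487134), which encodes the activin-binding protein follistatin, was covered over 25.5% of 6.51 kb, with ratios from 2.02 to 2.64. The BMP antagonist gene NOG (chr17:56593699-56595611) had peaks on both sides (2.37, 2.43 and 2.62), covering 4.13% of its 1.91 kb.

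Latent TGF-beta binding proteins tether the inactive ligand to the matrix. All 4 of their genes had a peak, where 67.5% of all protein-coding genes did, and 76.7% of those of 100 kb or more. LTBP4 (chr19:40593166-40629820) had 16 peaks over 40% of its span, the strongest at 4.03. LTBP3 (chr11:65538559-65558359) had 9 over 25.3%, up to 3.67. LTBP2 (chr14:74498183-74612237) had 14 peaks over 9.03% of its span, among them some of the stronger peaks of the pathway, up to 4.59, and a median log2 ratio of 3.95. All 10 of its peaks inside the gene lay within the first 37.1% of the span. LTBP1 (chr2:32946953-33399509) had 8 over 1.16% of 453.0 kb, with the strongest (5.49) close to its end. Its 0.173 peaks per 10 kb lay below the 0.48 of the 500 kb on each side, and the other 3 genes lay above theirs.

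Receptor genes had the lowest median cover of the 9 roles, with a median of 1.19% of span, and TGFBR2 was the exception among them. TGFBR2 (chr3:30606356-30694142), the type II receptor that binds TGF-beta itself, had 23 peaks inside the gene over 27.5% of 87.8 kb, 2.35 per 10 kb where the 500 kb on each side held 0.16. Its strongest peak reached 5.40 (chr3:30660237-30660737), its widest measured 3.07 kb, and the median was 2.52. TGFBR1, the type I partner in the same complex, had 1 peak at its start (2.81) over 1.19% of 50.5 kb. The activin type I receptor gene ACVR1B likewise had only a start peak (3.30). ACVR2B (chr3:38453890-38493142), an activin type II receptor gene, had 3 peaks over 3.93%, up to 3.57, of which 1 lay past its end in EXOG.

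Of the 4 BMP receptor genes, 3 had more peaks than the median of 2 for protein-coding genes of 100 kb or more, and BMPR1B had none. BMPR2 (chr2:202376327-202567749), the BMP type II receptor gene, had 8 over 2.27% of its span, up to 3.67. BMPR1A (chr10:86755763-86932844), a type I receptor gene, had 5 over 2.33%, up to 3.58, and ACVR1, a type I receptor gene as well, had 3 over 1.10%. For cover among genes of their length class, BMPR1A lay at percentile 73.4, BMPR2 at percentile 72.8 and ACVR1 at percentile 61.3. Each of these 3 genes had a peak at its start, with log2 ratios of 2.43 at BMPR2, 2.29 at BMPR1A and 2.47 at ACVR1. In BMPR1A the next peak lay 100383 bp from the start, and in ACVR1 a narrow peak of 5.49 lay at 15.1% of the span. No peak was found at BMPR1B (chr4:94757955-95158450), in a region with 0.17 peaks per 10 kb around it, or at ACVR2A (chr2:147844517-147930822), with 0.01. Among the co-receptors, ENG (chr9:127815016-127854658), for endoglin, had 6 peaks over 6.41%, up to 4.46, 2 of them past its end in FPGS. TGFBR3 (chr1:91680343-91906002), for betaglycan, had 1 at 2.65 over 0.273% of 226.0 kb. BAMBI (chr10:28677521-28682932), which encodes a decoy receptor without kinase activity, had 3 peaks over 13.5%, 1 across its start (2.51), 1 near its end (2.67) and 1 just beyond (3.21).

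SMAD genes differed widely, from 0 peaks at SMAD9 to 34 at SMAD3, the highest count among the 48 members. SMAD3 (chr15:67065602-67195169), the DNA-binding SMAD of TGF-beta and activin signals, had 34 peaks over 29.2% of its span, with log2 ratios up to 4.07 and a median of 3.05. Of its 32 peaks inside the gene, 12 lay in the last of 5 equal parts of the span. SMAD2, its close relative on the same branch, had 1 (3.79) over 0.438%. Among BMP SMADs, SMAD5 (chr5:136132845-136182733) had 2 peaks near its start (2.30 and 3.03) over 2.59%. SMAD1 had 1 narrow peak 63895 bp from a start (5.49), and SMAD9 (chr13:36844831-36920854) had none, in surroundings of 0.19 per 10 kb. SMAD4, the common partner, had a start peak at 2.40 and another at 2.46. The inhibitory SMADs had more: SMAD6 (chr15:66702236-66782849) had 8 peaks over 6.18% of its span, up to 3.90, and SMAD7 (chr18:48919853-48950965) had 6 over 13.1%, up to 3.93. In peaks per 10 kb SMAD6 lay below its surroundings (0.883 against 1.10) and SMAD7 above them (1.46 against 0.30). SMAD6 and SMAD3 lie 283.0 kb apart on chromosome 15, with 8 and 34 peaks. SMAD2, SMAD4, SMAD7 and TGIF1 lie on chromosome 18, where 65.6% of protein-coding genes had a peak.

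**Figure D3:**
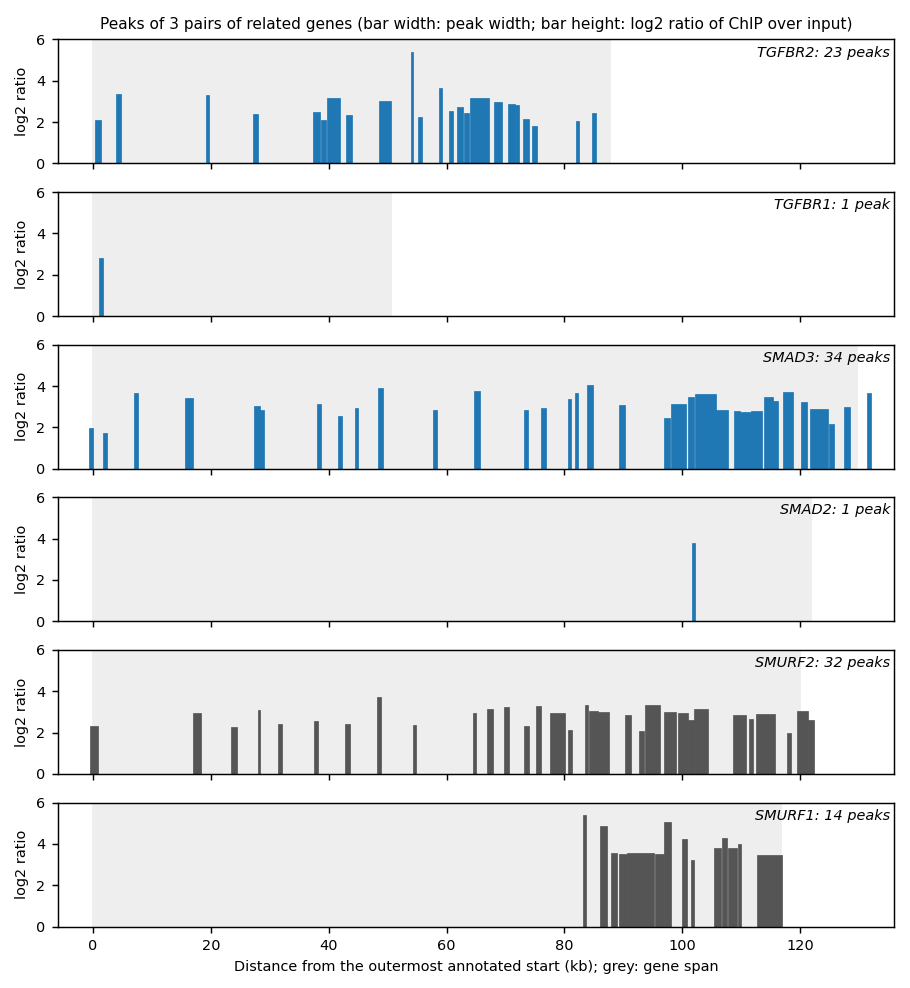
Peaks of 3 pairs of related genes, drawn by distance from the outermost annotated start in kb (x axis) and log2 ratio of ChIP over input (y axis), with bar width equal to peak width and the gene span in grey. TGFBR2, SMAD3 and SMURF2 carry 23, 34 and 32 peaks, and their counterparts TGFBR1, SMAD2 and SMURF1 carry 1, 1 and 14. The pairs were picked after their values were seen.

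SMURF1 and SMURF2 encode HECT-type ubiquitin ligases that mark SMADs and receptors for degradation, and their peaks were placed differently. SMURF2 (chr17:64542282-64662307) had 32 peaks over 31.1% of its span, of which 30 lay inside the gene, from its start (2.33) to 118.0 kb. SMURF1 (chr7:99027440-99144108) had 14 over 17.8%, all in the last part of the gene from 83.5 kb onwards, with none at its start. SMURF1 peaks were higher, with a median log2 ratio of 3.81 and a maximum of 5.40, against 2.92 and 3.72. The widest SMURF1 peak measured 4.55 kb. Some peaks at the far end of SMURF1 also lie in the overlapping lncRNA gene LOC101927550.

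All 4 corepressor genes had peaks, where 67.5% of all protein-coding genes did. TGIF2 (chr20:36573464-36593950), a homeodomain corepressor of TGF-beta-activated SMADs, had 13 peaks over 48.5% of its 20.5 kb, with log2 ratios from 1.63 to 3.35 and a median of 2.40, below the list's 2.99. Most of them also lie in the read-through gene TGIF2-RAB5IF. TGIF1 (chr18:3412009-3459978), its paralog, had 4 over 5.16%, up to 4.21. SKIL (chr3:170357715-170396849), which encodes the SKI-like corepressor SnoN, had 7 over 9.76%, including the highest ratio of any member peak, 5.57, in a narrow peak at -2690 bp from the start (chr3:170354775-170355275). SKI (chr1:2228319-2310213) had 5 over 4.15%, with ratios from 3.55 to 5.16 and a median of 4.17, the highest median of any member with more than 1 peak.

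**Figure D4:**
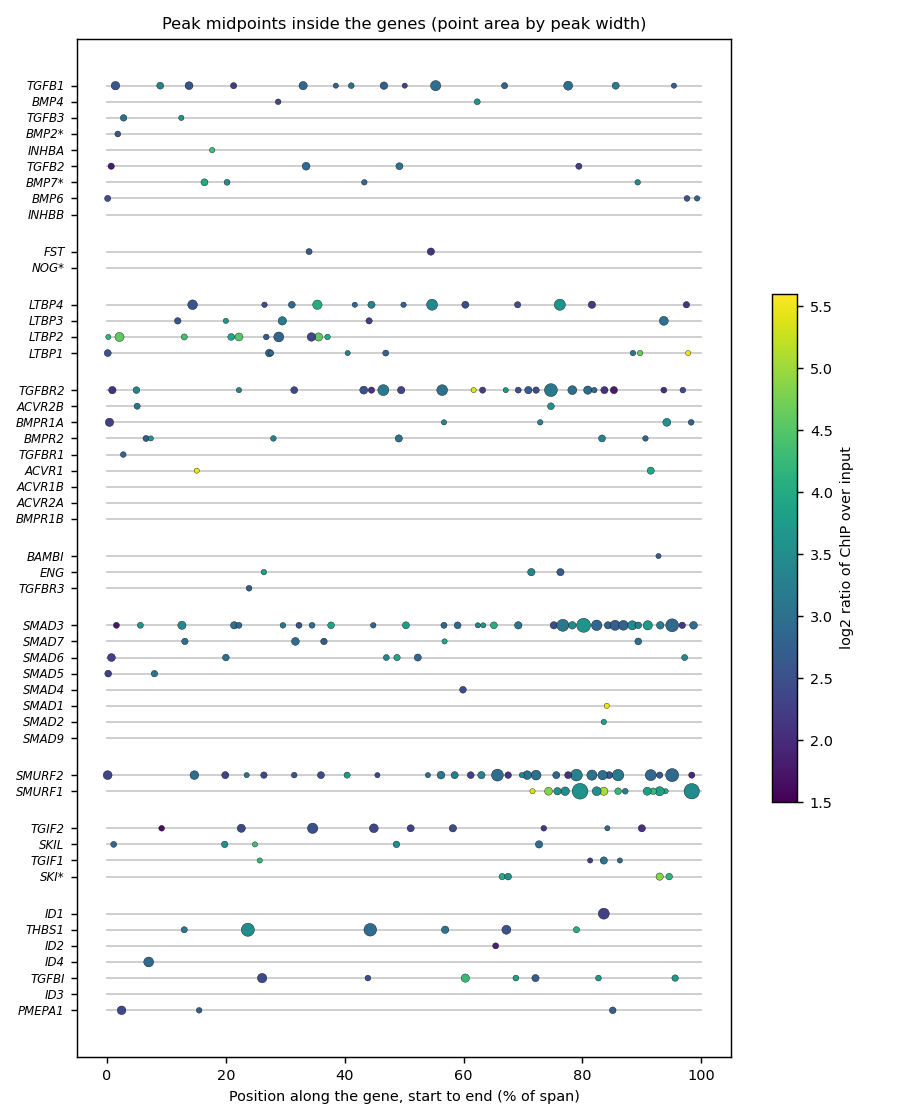
Midpoints of the 246 peaks inside the genes (x axis, percent of the span from start to end), with colour for the log2 ratio of ChIP over input and point area growing with peak width between fixed limits. Genes marked with an asterisk have no listed strand and are drawn from their lower coordinate. SMURF1 peaks lie in the last part of the gene, LTBP2 peaks in the first, and SMAD3 and SMURF2 peaks crowd towards the end.

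Target genes were covered over a median of 25.5% of their span, and all 7 had a peak, against 67.5% of all protein-coding genes. The ID genes encode short inhibitors of helix-loop-helix factors and are classic BMP targets. ID1 (chr20:31605289-31606510) was covered over 99.9% of its 1.22 kb by a single peak of 2.22 kb at 2.29, with further peaks on both sides (2.41 and 1.76). ID2 (chr2:8682056-8684461) had 5 peaks over 29.6%, of which 3 lay before the gene within the antisense gene ID2-AS1 and the strongest (3.78) just past its end. ID3 had 4 peaks outside or across its edges (2.04 to 3.29), and ID4 (chr6:19837370-19842197) had 1 peak across its start (2.90) over 25.5% of the gene. THBS1 (chr15:39581079-39599466), which encodes thrombospondin-1, an activator of latent TGF-beta and itself a TGF-beta target, had 6 peaks over 54.5% of 18.4 kb, the strongest at 4.05, and none at its start. TGFBI, a matrix protein gene induced by TGF-beta, had 7 over 18.6%, up to 4.27, the first of them 9094 bp from the start. PMEPA1, a feedback inhibitor induced by TGF-beta, had 4 over 4.40%, up to 2.72.

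TGF-beta and activin genes had a higher median cover than BMP genes, except in the longest genes. Peaks were found at 21 of 21 TGF-beta and activin genes, 15 of 17 BMP genes and 9 of 10 shared genes, against the 67.5% of all protein-coding genes. Medians of percent of span covered were 5.25%, 2.74% and 8.08%. Pooled over all bases the branches differed more, with 9.20% of TGF-beta and activin gene sequence under peaks, 1.82% of BMP and 12.3% of shared. Pooled values rest heavily on a few genes. SMAD3 (37.8 kb under peaks) and TGFBR2 (24.1 kb) weigh most in the first, and SMURF2 (37.3 kb) and SMURF1 (20.8 kb) in the shared. The BMP value includes the 400496 bp of BMPR1B, which had no peak. Within length classes, median cover in TGF-beta and activin against BMP genes was 25.4% and 21.5% under 20 kb (4 and 7 genes). It was 5.20% and 2.59% at 20 to 100 kb (12 and 5 genes), and 1.16% and 1.24% at 100 kb or more (5 and 5 genes). Median peaks per 10 kb were higher in BMP genes under 20 kb (2.52 against 1.97) and at 100 kb or more (0.242 against 0.173). At 20 to 100 kb they were lower in BMP genes, at 0.334 against 0.775. Start peaks were found at 12 of 21 TGF-beta and activin genes (57.1%) and 10 of 14 BMP genes with a listed start (71.4%). Of all protein-coding genes with a listed start, 39.8% had one. The number of listed starts differed between members, up to 8 at TGFBR1, and was not matched between the branches. None of these differences was tested.

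Cover by role ran from a median of 1.19% in receptors, 2.28% in SMADs and 3.82% in ligands to 17.2% in latent binding proteins and 25.5% in targets. Targets are short, at a median span of 4.83 kb against 87.8 kb in receptors, and percent of span covered was higher in shorter members: the medians were 23.4%, 4.27% and 1.76% from the shortest to the longest class. Over all protein-coding genes the same medians were 0%, 3.44% and 0.615%.

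Most members were denser in peaks than their surroundings. The density in the gene with 5 kb flanks exceeded that of the next 500 kb on each side at 33 of 48 members, against 46.7% of all protein-coding genes. This held at 18 of 21 TGF-beta and activin genes, 9 of 17 BMP genes and 6 of 10 shared genes, the BMP share being nearest to that 46.7%. By length, it held at 12 of 12 members under 20 kb, against 4034 of 8980 protein-coding genes. At 20 to 100 kb it held at 16 of 24, against 4124 of 7639, and at 100 kb or more at 5 of 12, against 1174 of 3351. Under 20 kb the measure largely repeats the presence of a peak. The single peak of INHBB gave 0.638 per 10 kb, where the surroundings of these short members had a median of 0.335. The count in that class is therefore not separate from the count of genes with a peak. TGFB1 had 4.76 peaks per 10 kb in surroundings of 0.49, TGFBI 1.56 in 0.06, and BMP2 0.886 in 0.01. BMPR1A had 0.267 in 1.04, and SMURF1 and ENG were at the level of their surroundings.

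**Figure D5:**
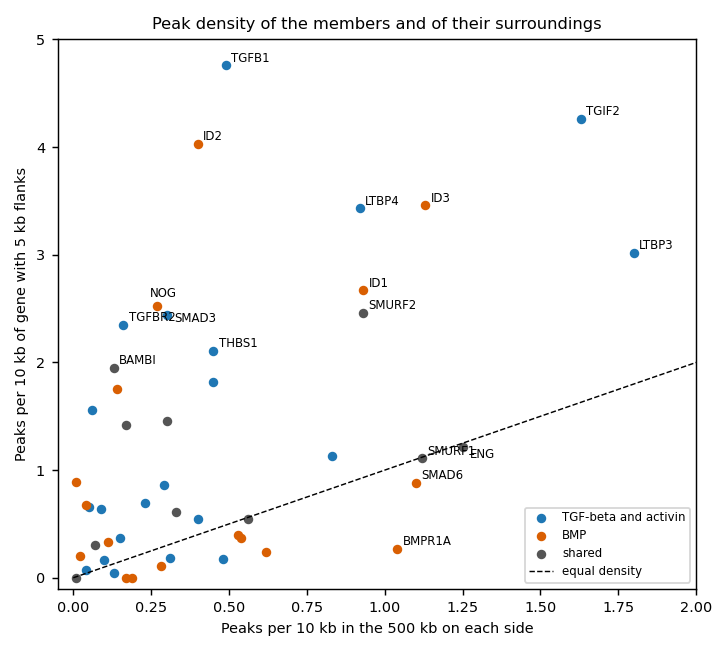
Peaks per 10 kb of each gene with its 5 kb flanks (y axis) against peaks per 10 kb in the next 500 kb on each side (x axis), coloured by branch, with the dashed line at equal density. TGFB1, TGIF2 and ID2 lie far above the line and BMPR1A lies below it.

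Along the 44 genes of known orientation, the last part of the span held the largest share of peaks, as over all protein-coding genes. From start to end, the 5 equal parts of the span held 16.5%, 18.6%, 17.3%, 20.7% and 27.0% of their 237 peaks inside genes. Over all protein-coding genes the parts held 20.4%, 16.6%, 18.3%, 20.7% and 23.9%. Of the 64 peaks in the last part, SMAD3 held 12, SMURF1 held 9 and SMURF2 held 8. These 3 genes held the most peaks there and were left out for that reason, after their values were seen. The 161 peaks of the other 41 genes were divided as 20.5%, 21.1%, 19.9%, 16.8% and 21.7%, the last part still being the largest. A choice by that rule favours a lower share in the last part, so the split cannot show where the lean came from. The same removal was not made for all protein-coding genes.

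A further 86 genes of the pathway, listed by function, were counted the same way. Of these, 58 (67.4%) had a peak, against 67.5% of all protein-coding genes, with a median cover of 0.614%. Genes for SMAD cofactors and regulators had one in 24 of 24. Other ligands had peaks at 14 of 24, other receptors and co-receptors at 4 of 8, other antagonists at 6 of 12, genes that handle the latent complex at 5 of 8 and other targets at 5 of 10. The 4 with the highest ratios were the integrin gene ITGAV and the ubiquitin ligase gene NEDD4L (both 6.26), TRIM33 (6.21), which encodes a SMAD4-binding ubiquitin ligase, and RUNX1 (6.10), a DNA-binding partner of SMADs. NEDD4L and RUNX1 were also rich in peaks, with 40 and 32.

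Most of the highest member ratios took a discrete form. The linear ratios of the list are built on a common step of 2.64, and some are its exact whole multiples. Of the 7 members whose strongest peak exceeded a log2 ratio of 5, 6 had that peak on such a multiple (ACVR1, LTBP1, SKIL, SMAD1, SMURF1 and TGFBR2), and SKI did not. Over all member peaks 8.85% had this form, against 12.4% of the list. Its part in the height of these peaks was not tested.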

How the data were processed

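Chromatin from MDA-MB-231 cells expressing tagged KDM1B was precipitated with an anti-FLAG antibody and sequenced beside an input library, per the labels' protocols. The submitters' processing notes name Bowtie2 2.2.9, Trim Galore 0.4.5 and the build hg38. For the peak caller and its thresholds, nothing is given in the sources used here. The deposited file gives 1 log2 ratio of ChIP over input per peak. The unit was read from the values: 99.9% of linear ratios were a common step of 2.64 multiplied by a fraction with whole terms (denominators up to 399, tolerance 1e-06), and a whole multiple of the step was called within 1e-05. Coordinates are as deposited, and whether they count from 0 or 1 is not stated.

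Spans of genes were those of RefSeq on GRCh38.p14 (all 48 members matched), and starts, strand and promoter sequences from a RefSeq table of the same build (44 matched). Exons were not used. Counts, cover and densities were computed for every protein-coding gene with Python 3.11.15, pandas 2.3.3 and numpy 2.4.6, and the assignment was checked on simulated peaks. Depth per library is unknown.

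The members and lists were chosen with earlier results of these data known. Every member is named with values. By rule, position and strongest ratio are given in each role for up to 4 genes of highest cover, and position for genes without a peak. Values of the remaining members go beyond that rule. Other pathway genes are named by the 4 highest ratios. Promoters printed are the 6 of highest ratio whose window lay under a peak, and were limited to the outermost start after the data were seen. Alternatives covered the flank, the overlap, the stronger peaks, joined peaks, whole multiples and the distance to the start.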

Additional observations from a re-analysis of the deposited data

How the results depend on the processing

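No paired analysis was possible because each group held 1 library, so no replicate could be left out either. With peaks at or above the median log2 ratio only, 10 members lost their last peak (BMP2, FST, ID1, ID4, INHBB, NOG, PMEPA1, SMAD4, TGFBR1 and TGFBR3). The targets with a peak then numbered 4 after 7, the secreted antagonists 0 after 2, and all member peaks 138 after 305. Median cover was then 3.07% after 5.25% for TGF-beta and activin genes and 0.638% after 2.74% for BMP genes. Without flanks 1 of 2 antagonists kept a peak, and ACVR1B, ID3, INHBB and NOG had none. With 5 kb on each side added to the span, median cover was 6.44% for TGF-beta and activin genes and 4.30% for BMP genes. Joining peaks within 1 kb left 197. Without whole multiples of the step SMAD1 lost its only peak. Members with a start peak numbered 19 to 36 over the distances tried, beside 32.1% to 53.3% of protein-coding genes; the count of 24 at the upstream end alone was added after the data were seen. Unknown read depth limits every single ratio.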
